A study of Homo sapiens with 18 samples.

Results

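IL24 and 9 other inflammatory genes were followed across all conditions of an RNA sequencing experiment in OVCAR5 cells. They are the cytokines IL24, IL6, IL11, LIF and IL18, the chemokines CXCL1, CXCL2 and CXCL8, and the NF-κB feedback genes NFKBIA and TNFAIP3. The 10 genes were picked by symbol from the 60483 genes of the deposited table, and IL24 was put first because its level had been seen to be far lower with stearate. The measured value that entered this choice was that of IL24, while the other 9 genes were listed by symbol, with earlier results of these data known. Stearate against control is therefore given below for all 10 genes as a description without a test. For IL24 the same holds in every comparison that uses its stearate or control samples, except in the comparisons of CAY10566 with DMSO and their interactions, which the choice did not use.

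OVCAR5 is an established human cell line, labelled as high-grade serous ovarian adenocarcinoma with a wild-type genotype. The cells were held for 24 h in medium with 5% fatty acid-free bovine serum albumin, which all groups share, with no added fatty acid, 50 µM stearate or 50 µM oleate, each with the vehicle DMSO or with 1 µM CAY10566. Stearate is a saturated fatty acid, oleate has the same carbon chain with one double bond, and CAY10566 inhibits stearoyl-CoA desaturase, the enzyme that makes oleate from stearate. Each of the 6 conditions had 3 samples, named here by fatty acid and agent (oleate+CAY10566, for example, or DMSO and CAY10566 alone where no fatty acid was added), and the 6 samples that share a fatty acid were pooled for the fatty acid comparisons, with the 6 samples without added fatty acid as the control.

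IL-24 belongs to the IL-20 subfamily of the IL-10 cytokines, is made by epithelial and immune cells, and signals through receptors that pair IL20RB with IL20RA or IL22RA1. IL-6, IL-11 and LIF share the signalling receptor gp130, encoded by IL6ST, and act through JAK kinases and STAT3. The chemokines of the set draw neutrophils through CXCR1 and CXCR2, and many of these genes are induced by the transcription factor NF-κB, which NFKBIA (IκBα) and TNFAIP3 (A20) restrain in turn.

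The values are TPM, relative transcript levels scaled for transcript length and for the total of each sample, so that levels can be compared between genes. TPM keeps no read depth, and the precision is given by the spread between samples alone. The labels do not say whether the 3 samples of a condition came from separate cultures, and p-values measure only the spread between them. In bulk RNA, fewer cells that express a gene and less RNA per cell cannot be told apart.

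The 18 profiles were close to each other, with correlations between samples of one condition of 0.982 to 0.987 and between conditions of 0.978 to 0.987. All 7 epithelial markers were above 1 TPM, and their summed level was 3182 to 3322 TPM in the control samples, 2575 to 2784 TPM with stearate and 2893 to 3230 TPM with oleate. Of 5 ovarian serous markers only PAX8 and MSLN had a mean of at least 1 TPM, while WT1 (0.126 TPM), MUC16 (0.632 TPM) and SOX17 (0.0411 TPM) did not, so the labelled tissue was only partly visible in these markers. Of the leukocyte markers, PTPRC (CD45) had a mean of 0.00556 TPM, and CD68 (94.5 TPM) was the only 1 of 8 with a mean above 1 TPM. The single epithelial markers differed unevenly between control and stearate samples. Mean KRT18 was 883 and 651 TPM and KRT8 962 and 814 TPM, while EPCAM was 335 and 324 TPM and CDH1 48.8 and 45.3 TPM. The lower epithelial sum with stearate, which the keratins dominate, runs beside every stearate value below, and its part in them was not tested.

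All 10 genes were expressed, with means over the 18 samples from 7.21 TPM for IL24 to 378 TPM for NFKBIA. CXCL8 followed NFKBIA at 345 TPM, then LIF at 209, CXCL1 at 136, CXCL2 at 123 and IL6 at 99.1 TPM. IL18 (35.6 TPM), TNFAIP3 (33.8 TPM) and IL11 (29.7 TPM) lay close together, and their ranges over the samples overlapped. Neighbours in this order overlapped, apart from 3 steps, from CXCL8 to LIF, from IL6 to IL18 and from IL11 to IL24: the highest IL24 value, 11.7 TPM, was below the lowest IL11 value, 22.2 TPM. No gene of the set had a mean under 1 TPM.

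**Figure D1:**
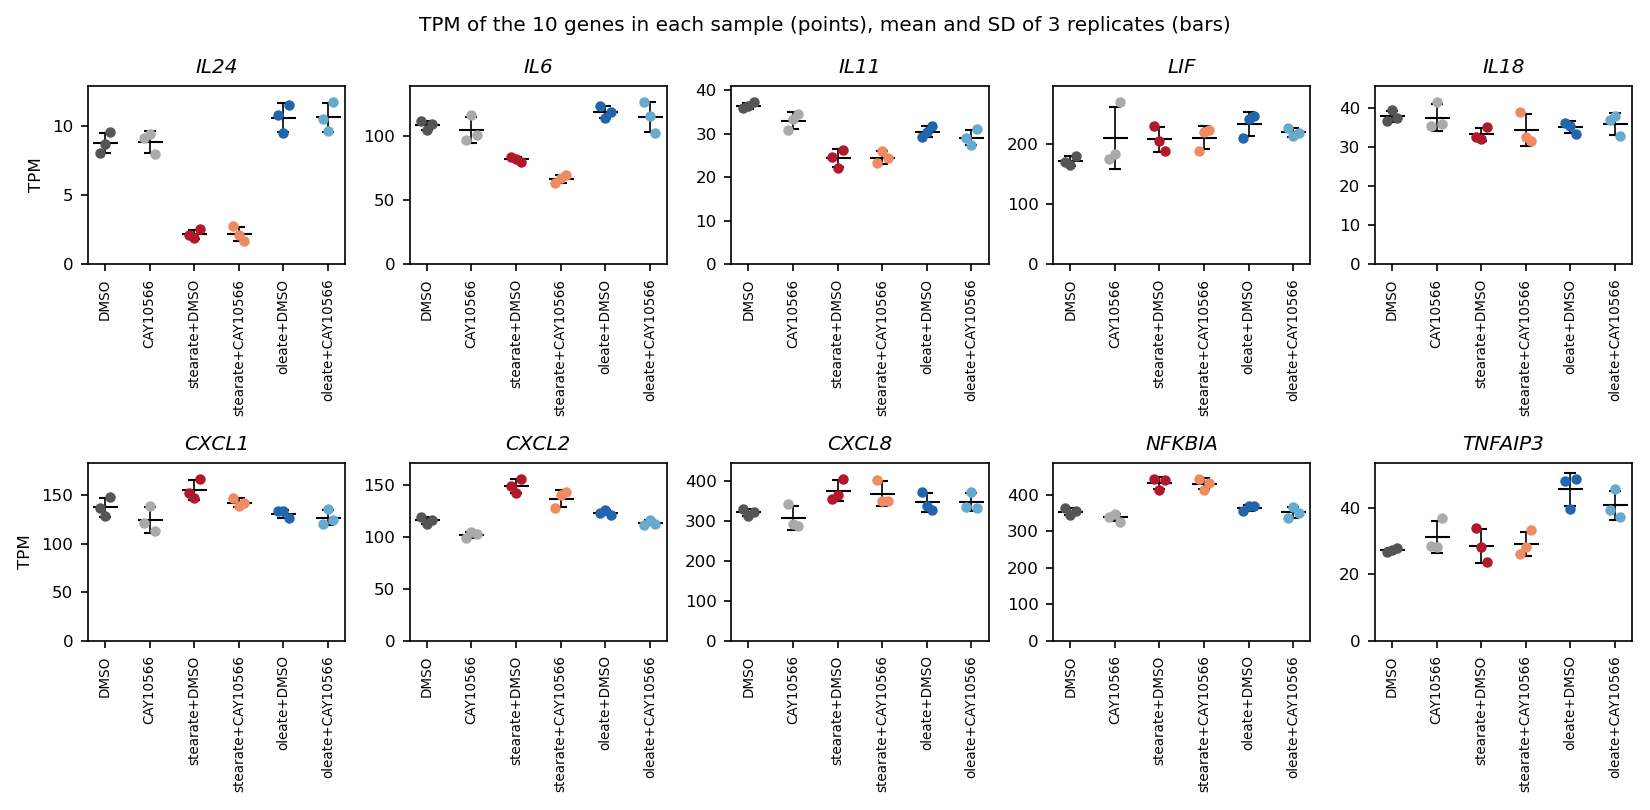
TPM of the 10 genes in each of the 18 samples, with a panel per gene, the 6 conditions on the x axis, points for single samples and bars for the mean and SD of 3 replicates. IL24 lies between 1.69 and 2.75 TPM in the 6 stearate samples and between 7.98 and 11.73 TPM in the other 12, and TNFAIP3 is highest in the oleate samples.

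IL24 lies on the forward strand of chromosome 1 (chr1:206897443-206904139, GRCh38), in a cluster with the related cytokines IL10, IL19 and IL20. The sequence just before its start is shown beside those of IL6 and IL11, which were also lower with stearate, and of CXCL2 and NFKBIA, which were higher, so that the letters of genes that differed in direction can be compared. Each line holds the 250 bases before the RefSeq transcription start on GRCh38.p14, written 5′ to 3′ on the gene's own strand, at chr1:206897193-206897442 (plus strand) for IL24, chr7:22726950-22727199 (plus) for IL6, chr19:55370464-55370713 (minus) for IL11, chr4:74099196-74099445 (minus) for CXCL2 and chr14:35404750-35404999 (minus) for NFKBIA. Capitals mark matches on either strand to the kappaB consensus, to the related motif GGANTTTCC, whose matches overlap those of the consensus in part, or to the AP-1 motif TGANTCA.
IL24: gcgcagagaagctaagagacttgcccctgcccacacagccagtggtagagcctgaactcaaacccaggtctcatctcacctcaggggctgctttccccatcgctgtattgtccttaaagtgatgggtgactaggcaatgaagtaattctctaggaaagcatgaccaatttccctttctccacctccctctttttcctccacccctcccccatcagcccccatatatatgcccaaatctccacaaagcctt
IL6: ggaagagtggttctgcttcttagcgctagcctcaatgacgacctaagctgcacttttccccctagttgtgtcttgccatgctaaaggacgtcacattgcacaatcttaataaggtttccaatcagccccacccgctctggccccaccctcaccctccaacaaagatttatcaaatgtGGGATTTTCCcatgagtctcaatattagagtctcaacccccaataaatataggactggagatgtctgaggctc
IL11: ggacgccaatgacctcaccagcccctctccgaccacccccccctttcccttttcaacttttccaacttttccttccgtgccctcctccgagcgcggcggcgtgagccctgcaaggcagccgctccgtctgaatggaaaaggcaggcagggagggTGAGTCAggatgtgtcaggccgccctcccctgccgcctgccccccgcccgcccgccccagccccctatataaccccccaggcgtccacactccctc
CXCL2: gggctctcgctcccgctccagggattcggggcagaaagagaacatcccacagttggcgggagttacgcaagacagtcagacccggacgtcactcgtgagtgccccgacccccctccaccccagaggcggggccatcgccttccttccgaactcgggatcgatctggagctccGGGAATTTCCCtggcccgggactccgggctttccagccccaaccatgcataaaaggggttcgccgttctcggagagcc
NFKBIA: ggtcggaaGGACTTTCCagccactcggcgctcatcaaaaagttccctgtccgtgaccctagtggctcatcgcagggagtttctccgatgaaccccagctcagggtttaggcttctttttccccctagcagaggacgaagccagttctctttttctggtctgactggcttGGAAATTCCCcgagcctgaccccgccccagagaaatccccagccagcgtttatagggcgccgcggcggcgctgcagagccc

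In GENCODE the genes lie at chr7:22725884-22732002 (plus, IL6), chr19:55364382-55370463 (minus, IL11), chr22:30240453-30246759 (minus, LIF), chr11:112143253-112164096 (minus, IL18), chr4:73869393-73871308 (plus, CXCL1), chr4:74097040-74099196 (minus, CXCL2), chr4:73740519-73743716 (plus, CXCL8), chr14:35401079-35404749 (minus, NFKBIA) and chr6:137867214-137883314 (plus, TNFAIP3), all on GRCh38. For IL6, CXCL8 and TNFAIP3, and by a single base for CXCL2, the annotated gene begins before the RefSeq start.

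Promoter sequences were found for 8 of the 10 genes, without IL18 and LIF. The kappaB consensus matched in IL6 (bases -73 to -64 from the start), CXCL1, CXCL2 (-78 to -69 and, on the other strand, -77 to -68), TNFAIP3 (2 matches) and NFKBIA (-81 to -72), and in 9.57% of the 27305 promoters of the same length. GGANTTTCC matched in IL6, CXCL1, CXCL2, CXCL8, TNFAIP3 and NFKBIA, against 1.47% of all promoters. TGANTCA matched in IL11 (-96 to -90) and CXCL8 (-137 to -131), against 6.6% of all promoters. None of the motifs was found in the window of IL24, which says only that these letters are not in these 250 bases. A match is a description of the sequence, and genes with a kappaB match stood on both sides, with IL6 lower and CXCL2 and NFKBIA higher with stearate.

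Of the 10 genes, IL24 differed most with stearate. Its level was 8.08, 8.69 and 9.56 TPM in the DMSO samples and 9.17, 9.44 and 7.98 TPM with CAY10566 alone. With stearate it was 2.14, 1.88 and 2.52 TPM with DMSO and 2.75, 2.11 and 1.69 TPM with CAY10566. All 6 stearate samples were below every sample of the other conditions, with or without the inhibitor. The mean was 8.82 ± 0.682 TPM in the control samples and 2.18 ± 0.394 TPM with stearate (SD, n = 6 each), and the log2 fold change of TPM + 1 was -1.63 (SE 0.080), or 3.10-fold lower on that scale. The added 1 weighs on a level this low: with 0.1 in its place the log2 fold change was -1.98.

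With oleate IL24 was 10.8, 9.49 and 11.54 TPM with DMSO and 10.5, 9.64 and 11.73 TPM with CAY10566, a mean of 10.6 ± 0.934 TPM (SD, n = 6). Of these samples 5 of 6 were above every control sample, and the log2 fold change against the control was 0.24 (SE 0.080). Between the fatty acids, stearate against oleate, it was -1.87 (SE 0.080). These 2 values rest on the same samples that drew attention to IL24 and carry no test.

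CAY10566 made no detectable difference to IL24. Over the 3 fatty acid groups, 9 samples against 9, the log2 fold change was 0.00, with a 95% interval from -0.14 to 0.14 (limma adjusted p = 0.999). Within the groups it was 0.01 without fatty acid, -0.01 with stearate and 0.00 with oleate, and the 95% intervals reached from -0.27 to 0.27. The stearate difference was -1.62 in the DMSO samples and -1.64 in the CAY10566 samples (interaction -0.02, 95% interval -0.39 to 0.35, limma adjusted p = 0.979). This interval still holds changes past the fold threshold of 0.32 on the log2 scale in either direction.

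The neighbours of IL24 in its cluster were lower than IL24 itself, by their means. IL10 was at 0 TPM in all 18 samples, IL19 had a mean of 0.0322 TPM, and IL20 had means of 1.18 ± 0.483 TPM in the control samples, 0.728 ± 0.274 TPM with stearate and 0.953 ± 0.362 TPM with oleate (SD, n = 6 each), with overlapping ranges. FCMR, on the opposite strand, overlaps IL24 in the annotation and had means of 10.3 ± 1.17, 8.39 ± 1.12 and 10.7 ± 0.954 TPM in the same order, with overlapping ranges. The library kit keeps the strand, but the strand setting of the counting is not given in the sources used here, and reads of the shared stretch could be divided between the 2 genes. The receptor chains of IL-24 were low, with means over the 18 samples of 1.21 TPM for IL20RA, 1.38 TPM for IL20RB and 0.699 TPM for IL22RA1. Of 9 other ligands and receptors of the IL-20 subfamily, 3 had a mean of at least 1 TPM and 0 were called in any fatty acid comparison, where a call means a limma adjusted p under 0.05 and a change past the fold threshold. Over all genes 5.35% were called with stearate, 6.9% with oleate and 6.37% between the fatty acids, so that 0 of 3 shows little.

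The genes whose pattern was most like that of IL24 were ranked by Pearson's r of log2(TPM + 1) over the 18 samples, among the 10141 genes with a mean of at least 5 TPM. The points share 3 fatty acid groups, so that r mainly follows the group means, and no test is attached. The highest were F3 (tissue factor, r = 0.978), IGFBP4 (an IGF-binding protein, 0.974), SNAPC1 (a subunit of the snRNA-activating complex, 0.972), TNS4 (a tensin, 0.970) and ANKRD1 (an ankyrin repeat protein, 0.969). F3 had means of 372, 127 and 416 TPM and ANKRD1 of 74.9, 37.4 and 89.8 TPM in the control, stearate and oleate samples. SRXN1 (sulfiredoxin, -0.956) and DHRS2 (a short-chain dehydrogenase, -0.955) lay at the other end of the ranking. Within the set IL6 was closest to IL24 (r = 0.90, rank 88), then IL11 (0.78, rank 329), while NFKBIA (-0.90) and CXCL2 (-0.81) ran opposite and LIF (-0.03) showed no relation.

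Of the gp130 cytokines, IL6 and IL11 were lower with stearate and LIF was not. IL6, the main acute-phase cytokine, was 111.41, 104.33 and 109.06 TPM in the DMSO samples and 96.98, 116.21 and 100.92 TPM with CAY10566 alone. With stearate it was 83.59, 81.84 and 80.06 TPM with DMSO and 63.34, 67.16 and 69.38 TPM with CAY10566. With oleate it was 123.11, 113.94 and 118.87 TPM with DMSO and 126.28, 115.46 and 102.54 TPM with CAY10566. Every stearate sample was below every other sample, while the control and oleate samples overlapped. Against the control the log2 fold change was -0.52 (SE 0.068) with stearate.

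Between the fatty acids at matched dose and time, IL6 was lower with stearate than with oleate, with a log2 fold change of -0.65 (SE 0.068, limma adjusted p = 1.16e-06). It was lower in the DMSO samples alone (-0.53) and in the CAY10566 samples alone (-0.77), and passed the thresholds in both. Oleate against the control gave 0.13 (95% interval -0.01 to 0.27, limma adjusted p = 0.164). IL6-AS1, an antisense gene that overlaps IL6, had a mean of 1.09 TPM over the 18 samples, far below IL6.

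IL11, a gp130 cytokine with roles in bone and in fibrosis, was 30.84 to 37.28 TPM in the control samples (median 35.3), 22.24 to 26.35 TPM with stearate (median 24.6) and 27.47 to 31.74 TPM with oleate (median 29.8). The stearate samples were below both other groups, and the oleate samples overlapped the control. The log2 fold change was -0.49 (SE 0.051) for stearate against control. Both other comparisons passed the adjusted p but not the fold threshold: oleate against control was -0.21 (SE 0.051, limma adjusted p = 0.00701) and stearate against oleate was -0.27 (SE 0.051, limma adjusted p = 0.000824). IL11 had its highest mean without fatty acid, while IL24 and IL6 had theirs with oleate.

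LIF, which sustains stem cells and acts through LIFR and gp130, overlapped between all 3 groups. It was 165.09 to 270.55 TPM in the control samples (median 178), 189.24 to 230.12 TPM with stearate (median 213) and 211.19 to 247.13 TPM with oleate (median 224). A single sample, CAY10566 replicate 3, held the top value of 270.55 TPM, and without it the control mean was 175 ± 7.69 TPM (SD, n = 5) in place of 191 ± 39.4 TPM (n = 6). Oleate against control was 0.26 (SE 0.092, limma adjusted p = 0.0401) with all samples, under the fold threshold, and 0.37 (limma adjusted p = 0.000109) without that sample, past both thresholds. In the DMSO samples alone it was 0.44 (limma adjusted p = 0.00690) and in the CAY10566 samples alone 0.09 (limma adjusted p = 0.817). The difference between these values, the interaction, was -0.34 (95% interval -0.71 to 0.02, limma adjusted p = 0.502), and an effect of CAY10566 on it was not shown. Stearate against oleate was -0.11 (95% interval -0.31 to 0.08, limma adjusted p = 0.408).

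The receptor shared by these cytokines rose with both fatty acids. IL6ST (gp130) rose with stearate, by 0.56 on the log2 scale (SE 0.14, limma adjusted p = 0.00758), and with oleate, by 0.70 (SE 0.14, limma adjusted p = 0.00290), from 25.0 ± 6.91 TPM in the control to 36.8 ± 6.77 and 40.2 ± 4.19 TPM (SD, n = 6 each). LIFR rose with oleate (0.61, SE 0.12, limma adjusted p = 0.00283) and was lower with stearate than with oleate (-0.42, limma adjusted p = 0.0158). JAK2, a kinase bound to gp130, rose with stearate (0.37, SE 0.072, limma adjusted p = 0.00161). OSMR had a mean of 66.6 TPM over the 18 samples, IL6R 5.52 and IL11RA 1.50 TPM, and none of them was called. Of 18 measured genes of this pathway outside the set, 2 rose and 0 fell with stearate and 2 rose and 0 fell with oleate (11.1% each, where 5.35% of all genes were called with stearate and 6.9% with oleate). The calls of IL6ST and LIFR were lost in the CAY10566 samples alone, and that of JAK2 also with rescaling.

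IL18, an IL-1 family cytokine that is cut to its active form by caspase-1, differed little. It was 35.19 to 41.37 TPM in the control samples (median 36.9), 31.55 to 38.89 TPM with stearate (median 32.4) and 32.74 to 37.91 TPM with oleate (median 35.8). All groups overlapped, although 5 of 6 stearate samples were below every control sample, and stearate against control was -0.15 (SE 0.054). Stearate against oleate was -0.07 (95% interval -0.18 to 0.04, limma adjusted p = 0.399) and oleate against control -0.09 (95% interval -0.20 to 0.03, limma adjusted p = 0.258). Its receptor chain IL18R1 had a mean of 2.09 TPM.

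Among 17 measured genes of the IL-1 and IL-18 family and its processing, 1 fell and 0 rose with stearate (5.88%, near the 5.35% of all genes). The gene that fell was IL1B, which encodes the cytokine IL-1β, from 180 ± 6.08 TPM in the control samples to 109 ± 9.40 TPM (SD, n = 6 each; log2 fold change -0.73, SE 0.050, limma adjusted p = 1.33e-08). With oleate IL1B was 181 ± 10.8 TPM, and the 1 gene that rose was NLRP1, an inflammasome sensor (0.35, SE 0.070, limma adjusted p = 0.00300), 1 of 17 or 5.88%, below the 6.9% of all genes. The call of IL1B held under all 27 alternatives, and that of NLRP1 was lost with rescaling and in the CAY10566 samples alone.

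The chemokines stood on the other side of the stearate comparison. CXCL2, a neutrophil attractant, was 119.13, 112.48 and 115.8 TPM with DMSO, 98.6, 104.34 and 102.18 TPM with CAY10566, 148.24, 141.53 and 155.57 TPM with stearate+DMSO and 127.13, 139.56 and 142.89 TPM with stearate+CAY10566. With oleate it was 123.07, 125.3 and 120.28 TPM with DMSO and 111.57, 116.06 and 112.41 TPM with CAY10566. All stearate samples were above all others, and the log2 fold change against the control was 0.39 (SE 0.051). Against oleate it was 0.27 (SE 0.051, limma adjusted p = 0.000932), short of the fold threshold, and oleate against control was 0.12 (limma adjusted p = 0.0890).

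CXCL1, the closest relative of CXCL2, was 113.44 to 147.9 TPM in the control samples (median 133), 138.92 to 167.22 TPM with stearate (median 147) and 120.93 to 135.67 TPM with oleate (median 130). The stearate samples overlapped the control but lay above all oleate samples. Stearate against control was 0.19 (SE 0.056), and stearate against oleate 0.21 (SE 0.056, limma adjusted p = 0.0143), short of the fold threshold. CXCL8 (interleukin-8) was 288.76 to 342.98 TPM in the control samples (median 318), 351.24 to 406.04 TPM with stearate (median 361) and 328.86 to 373.91 TPM with oleate (median 335). Its stearate samples were above all control samples, at 0.24 (SE 0.051), and overlapped the oleate samples, at 0.10 (95% interval -0.00 to 0.21, limma adjusted p = 0.164). Oleate against control was 0.14 (SE 0.051, limma adjusted p = 0.0503), short of the fold threshold as well.

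CXCL3, which is no member of the set but is a near copy of CXCL1 and CXCL2 in the same cluster on chromosome 4, had the largest difference of these chemokines. It rose from 100 ± 5.98 TPM in the control samples to 149 ± 8.68 TPM with stearate (SD, n = 6 each; log2 fold change 0.56, SE 0.052, limma adjusted p = 5.45e-07), and was 101 ± 8.01 TPM with oleate. The longest transcripts of CXCL1, CXCL2 and CXCL3 share 0 exact windows of 100 bases, the length of a read, although shorter stretches could still have been divided among them. CXCL5, their neighbour, had a mean of 1.01 TPM. The receptors were low, at 0.0128 TPM for CXCR1 and 0.652 TPM for CXCR2. Of 24 other chemokines and receptors 7 were measured at 1 TPM or more: CXCL3 rose with stearate, CX3CL1 (fractalkine) fell by 0.33 (limma adjusted p = 0.0201), and 0 were called with oleate. The 2 of 7 called with stearate are 28.6%, against 5.35% of all genes, and the 0 with oleate stand against 6.9%. The call of CX3CL1 against the control was lost under 7 of 26 alternatives. Among them were the omission of DMSO replicate 3, CAY10566 replicate 2 or 3, stearate+DMSO replicate 1 or stearate+CAY10566 replicate 1. For stearate against oleate 1 of the 7 was called higher and 2 lower (42.9%, against 6.37% of all genes). CX3CL1 was lower there, at 2.68 against 4.41 TPM, and kept that call under all 26 alternatives.

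The 2 feedback genes of NF-κB differed from each other. NFKBIA, whose protein holds NF-κB in the cytoplasm, was 363.87, 343.97 and 354.53 TPM with DMSO, 339.84, 347.06 and 326.38 TPM with CAY10566, 444.01, 413.12 and 440.22 TPM with stearate+DMSO and 443.7, 414.35 and 433.32 TPM with stearate+CAY10566. With oleate it ranged from 336.88 to 370.06 TPM (median 361). The stearate samples lay above all others, at 0.32 against the control (SE 0.030) and 0.27 against oleate (SE 0.030, limma adjusted p = 3.06e-06), the latter short of the fold threshold. Rescaling the samples by median-of-ratios size factors brought the first value to 0.26. Oleate against control was 0.05 (95% interval -0.01 to 0.11, limma adjusted p = 0.247).

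TNFAIP3, which encodes the ubiquitin-editing enzyme A20, was instead higher with oleate. It was 26.71, 27.26 and 27.93 TPM with DMSO, 28.45, 28.27 and 36.87 TPM with CAY10566, 33.87, 28.35 and 23.67 TPM with stearate+DMSO and 26.14, 28.27 and 33.29 TPM with stearate+CAY10566. With oleate it was 48.13, 39.77 and 48.81 TPM with DMSO and 39.35, 45.64 and 37.3 TPM with CAY10566. All oleate samples were above all others, and the control and stearate samples overlapped.

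TNFAIP3 rose with oleate against the control by 0.55 on the log2 scale (SE 0.093, limma adjusted p = 0.00172), or 1.46-fold. The difference was 0.71 in the DMSO samples (limma adjusted p = 0.00570) and 0.38 in the CAY10566 samples, where it was not called (limma adjusted p = 0.501). The difference between these values, the interaction, was -0.33 (95% interval -0.72 to 0.06, limma adjusted p = 0.525), so that an effect of CAY10566 on the oleate response was not shown. The CAY10566 controls include replicate 3, at 36.87 TPM, where replicates 1 and 2 had 28.45 and 28.27 TPM. With each sample left out in turn the interaction ran from -0.43 to -0.21. Stearate against oleate was -0.56 (SE 0.093, limma adjusted p = 0.000247), a call lost in the CAY10566 samples alone (-0.47, limma adjusted p = 0.0883), and stearate against control was -0.02 (SE 0.093). WAKMAR2, on the opposite strand, overlaps TNFAIP3 and had a mean of 1.02 TPM.

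**Figure D2:**
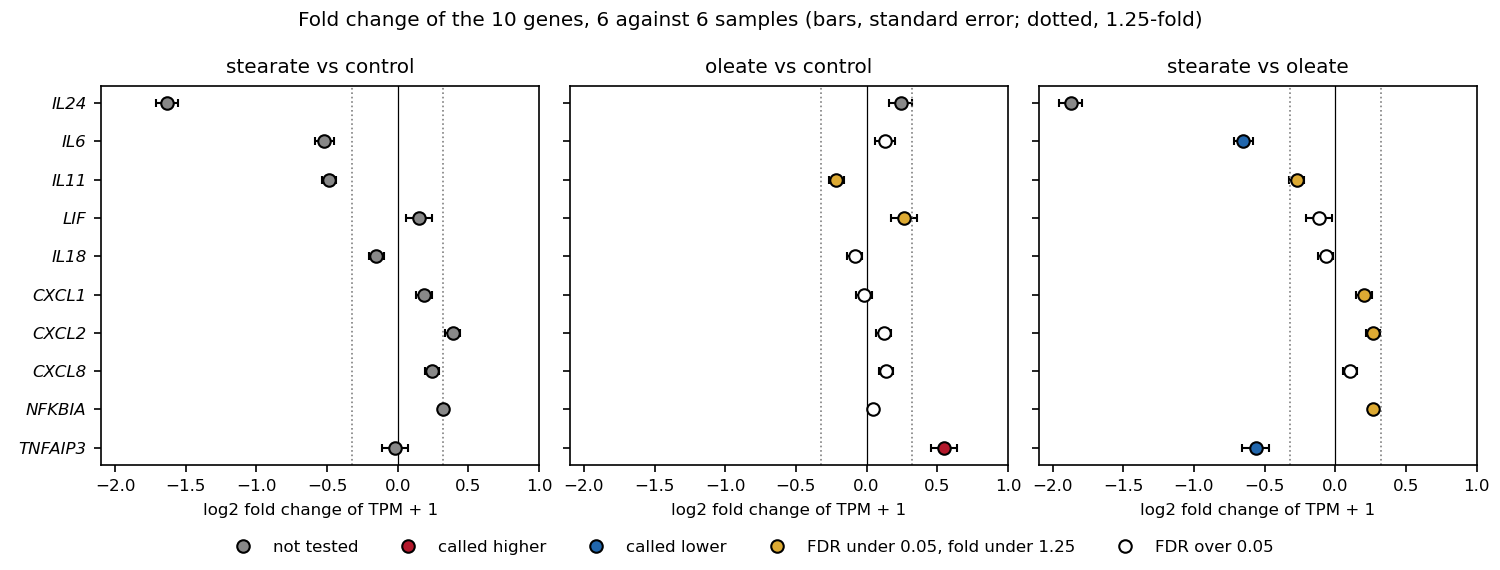
Log2 fold change of TPM + 1 (x axis) of the 10 genes (y axis) for stearate against control, oleate against control and stearate against oleate, 6 samples against 6, with bars for the standard error and dotted lines at the fold threshold (0.32 on the log2 scale). Grey points were not tested, and among the tested ones TNFAIP3 (0.55) passes both thresholds with oleate and IL6 (-0.65) and TNFAIP3 (-0.56) pass both for stearate against oleate.

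Counted over the set, stearate and control samples did not overlap for 6 of 10 genes, with IL24, IL6 and IL11 lower and CXCL2, CXCL8 and NFKBIA higher. Over all 13789 genes with a mean of at least 1 TPM the groups did not overlap for 7.79%, and 5.35% were called. The IL24 value of this contrast entered the choice of the set, and nothing is read from that count. With oleate 1 of the 9 tested genes was called, TNFAIP3, which was higher, against 6.9% of all genes called and 6.46% called higher. LIF and IL11, 2 more, passed the adjusted p alone, as did 25.7% of all genes including the called ones. TNFAIP3 was also the 1 gene of these 9 whose oleate and control samples did not overlap, against 4.06% of all genes. For stearate against oleate, the matched comparison of the saturated with the monounsaturated fatty acid, 2 of the 9 genes compared were called, IL6 and TNFAIP3, both lower with stearate, against 6.37% of all genes called and 4.78% called lower. Another 4 (IL11, CXCL1, CXCL2 and NFKBIA) passed the adjusted p without reaching the fold threshold, and 21.1% of all genes passed it, called ones included. Without IL24, stearate and oleate samples did not overlap for 6 of these 9 genes, against 10.2% of all genes. These comparisons use the stearate samples in which IL24 had been noted, and nothing is read from the counts over the set. All p-values were adjusted over the 13789 genes. These comparisons share samples, so that their calls are not independent.

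Over all genes, the calls with stearate were 477 higher and 261 lower (64.6% higher), and 276 higher and 369 lower (42.8% higher) after rescaling. With oleate they were 891 higher and 60 lower (93.7% higher), against 315 and 145 (68.5% higher) after rescaling. In the CAY10566 samples alone the stearate calls were 50 higher and 121 lower (29.2% higher) and the oleate calls 0 higher and 3 lower. As a median, all genes shifted by 0.06 on the log2 scale with stearate and by 0.09 with oleate.

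CAY10566 against DMSO called 0 of the 10 genes, and 0 of 13789 genes (0%), with limma, while 748 genes had an unadjusted p under 0.05. CXCL2 came nearest: it was 0.14 lower with the inhibitor (log2 fold change -0.14, SE 0.026, unadjusted p = 4.88e-05, limma adjusted p = 0.239). The direction was the same without fatty acid (-0.19), with stearate (-0.12) and with oleate (-0.12), and without fatty acid the 3 CAY10566 samples were all below the 3 DMSO samples. IL6 and CXCL1 were lower as well, at -0.13 (limma adjusted p = 0.850) and -0.11 (limma adjusted p = 0.875), and did not pass.

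For IL6 the inhibitor's value was largest beside stearate. The stearate+CAY10566 samples, at 63.34 to 69.38 TPM, were all below the stearate+DMSO samples, at 80.06 to 83.59 TPM, a log2 fold change of -0.29 (SE 0.071, unadjusted p = 0.000805, limma adjusted p = 0.444). The interaction with stearate was -0.24 (95% interval -0.45 to -0.03, unadjusted p = 0.0288, limma adjusted p = 0.514). Neither passed the correction over all genes. In that stratum limma called 1 gene of 13789 (0.00725%), with 761 at an unadjusted p under 0.05. Without fatty acid it called 0 (1399 at an unadjusted p under 0.05) and with oleate 0 (651). The interactions called 0 of the 10 genes, 1 gene of 13789 with stearate (1290 at an unadjusted p under 0.05) and 0 with oleate (1415).

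**Figure D3:**
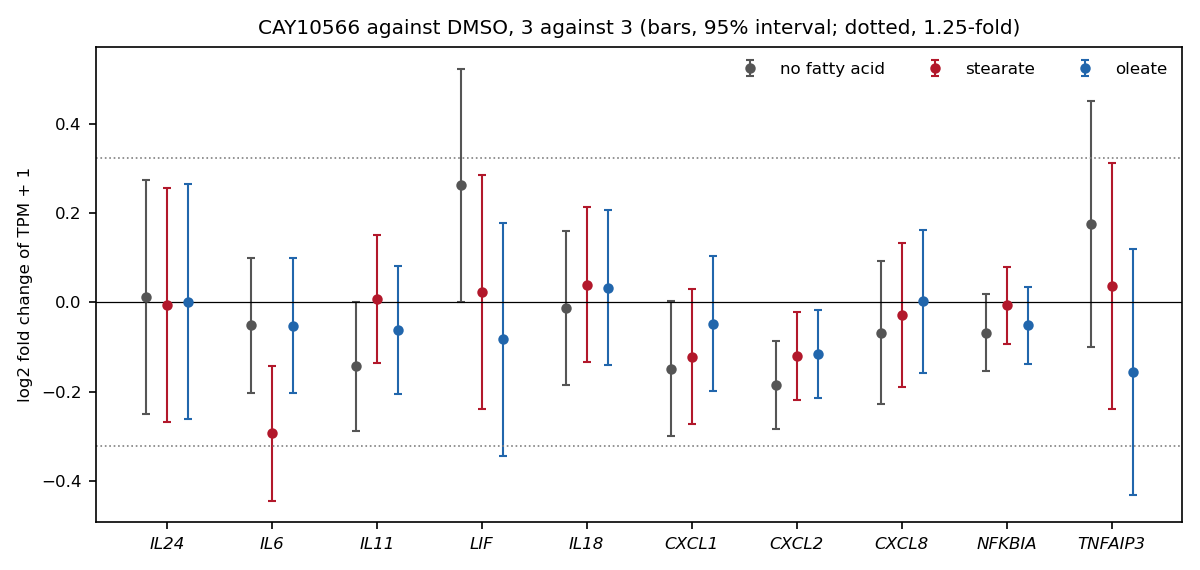
Log2 fold change of TPM + 1 (y axis) for CAY10566 against DMSO in each of the 10 genes (x axis), 3 samples against 3 without fatty acid, with stearate and with oleate, with bars for the 95% interval and dotted lines at the fold threshold (0.32 on the log2 scale). IL24 lies at 0.01, -0.01 and 0.00, CXCL2 is below 0 in all 3, and IL6 with stearate (-0.29) lies farthest below 0.

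The other genes of these pathways were taken from hand-written lists of 179 symbols, of which 178 were found and 136 had a mean of at least 1 TPM. With stearate 13 of the 136 rose and 5 fell (13.2% called, against 5.35% of all genes), and with oleate 10 rose and 0 fell (7.35%, against 6.9%). After rescaling 9 list genes rose and 5 fell with stearate and 7 rose and 3 fell with oleate, where 645 and 460 of the 13789 genes were called. For stearate against oleate 6 were higher and 9 lower (11% called, against 6.37%). The lists were written with earlier results of these data known, and genes in them are not independent of each other. Some lists share genes: CXCL3 and CX3CL1, for example, are counted both among the chemokines and among the NF-κB target genes.

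NF-κB target genes outside the set moved in both directions with stearate. Of 35 measured, 8 rose, 4 fell and 23 were not called (34.3% called, against 5.35% of all genes), and their median log2 fold change was 0.18 against 0.06 over all genes. CXCL3 and ICAM1, an adhesion molecule, rose most: ICAM1 was 271 ± 8.58 TPM in the control samples, 396 ± 29.3 TPM with stearate and 292 ± 18.6 TPM with oleate (SD, n = 6 each; stearate 0.55, SE 0.047, limma adjusted p = 1.83e-07). BCL2A1, an anti-apoptotic BCL2 relative, rose by 0.49 (SE 0.089, limma adjusted p = 0.000923), a call that was lost in the DMSO samples alone.

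The largest fall on this list was that of IL7R, the receptor chain for interleukin-7, from 8.51 ± 0.711 to 4.55 ± 0.348 TPM (SD, n = 6 each; -0.78, SE 0.065, limma adjusted p = 1.54e-07), and with oleate IL7R rose to 12.2 ± 1.03 TPM (0.47, limma adjusted p = 0.000382). That is the same order of groups as for IL24. The other 3 that fell, named after their values were seen, were LTB (lymphotoxin-β, -0.48), IL32 (-0.47) and CX3CL1 (-0.33). With oleate 1 of the 35 rose, IL7R, and 0 fell (2.86%, against 6.9% of all genes). With rescaling the stearate counts were 6 higher and 4 lower, without CAY10566 replicate 3 they were 7 and 3, and in the CAY10566 samples alone 6 and 3. The stearate calls of CXCL3, ICAM1, IL7R, LTB and IL32 held under all 27 alternatives, and the oleate call of IL7R was lost in the CAY10566 samples alone.

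**Figure D4:**
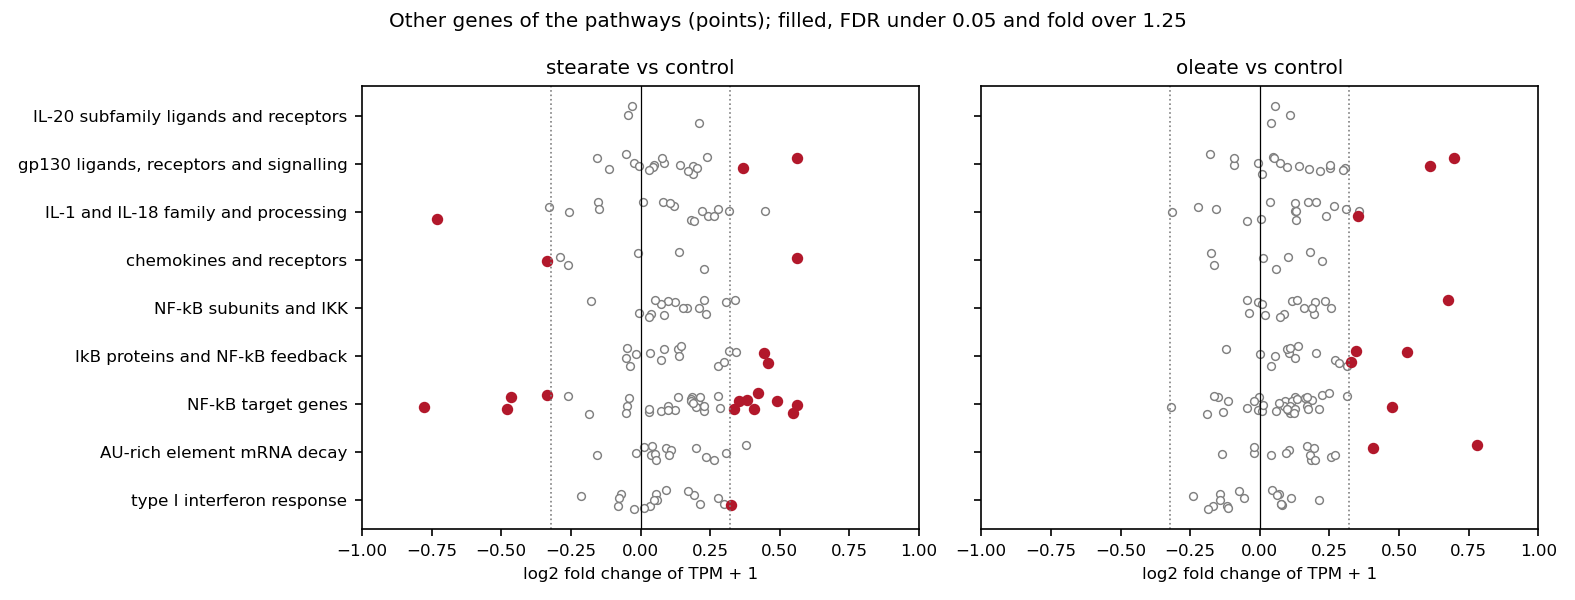
Log2 fold change of TPM + 1 (x axis) of the measured genes of 9 pathway lists (y axis) for stearate and for oleate against control, 6 samples against 6, with a point per gene, filled where the adjusted p is under 0.05 and the change is past the fold threshold. NF-κB target genes hold 8 higher and 4 lower with stearate and 1 higher with oleate.

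Among the signalling parts of NF-κB, of 16 subunits and IκB kinases 0 were called with stearate, and 1, REL, rose with oleate (0.67, SE 0.17, limma adjusted p = 0.0103), a call lost in the CAY10566 samples alone. These counts stand against 5.35% of all genes with stearate and, at 6.25%, near the 6.9% of all genes with oleate. Of 16 other IκB proteins and feedback regulators, NFKBIZ (0.46, limma adjusted p = 0.000476) and TNIP3 (0.44, limma adjusted p = 7.54e-05) rose with stearate, and OTUD7B (0.53), TRAF1 (0.34) and CYLD (0.33) rose with oleate. These are 12.5% and 18.8% of the list, against the same 5.35% and 6.9% of all genes. Without CAY10566 replicate 3 these counts were 5 with stearate and 5 with oleate, with rescaling the oleate count was 1, and in the CAY10566 samples alone 0 rose with stearate. The oleate calls of OTUD7B, TRAF1 and CYLD were lost in the CAY10566 samples alone. The calls of TRAF1 and CYLD were also lost with rescaling and without DMSO replicate 2, and that of CYLD also without DMSO replicate 1, CAY10566 replicate 2 or any one of the oleate+DMSO samples. Of 17 type I interferon response genes 1 rose with stearate, RIGI, an RNA sensor (0.32, limma adjusted p = 0.000246), and 0 with oleate, where the stearate share, 5.88%, was near the 5.35% of all genes. RIGI stood at the fold threshold and was not called under 7 of 27 alternatives, among them rescaling and the omission of DMSO replicate 1 or 2, stearate+DMSO replicate 2 or stearate+CAY10566 replicate 1 or 3.

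Many cytokine transcripts carry AU-rich elements, built of the pentamer AUUUA, through which proteins of the ZFP36 family and others speed their decay. The longest coding transcript of CXCL2 holds 10 such pentamers (8.97 per kb), CXCL8 10 (6.09), CXCL1 6 (5.11), IL6 6 (3.93), IL11 9 (3.79) and IL24 4 (2.02), against a median of 1.05 per kb over 11592 measured coding genes. LIF (1.81 per kb), IL18 (1.79), TNFAIP3 (1.28) and NFKBIA (1.08) had lower densities. The pentamers were counted over the whole transcript, coding sequence included, and the longest transcript need not be the one expressed. The 3 densest were chemokines that were higher with stearate, and NFKBIA, also higher with stearate, had the lowest density of the 10. Of 15 decay factors 0 were called with stearate, and ZC3H12C, a Regnase family member (0.78, SE 0.14, limma adjusted p = 0.00233), and RC3H1, which encodes Roquin-1 (0.41, limma adjusted p = 0.0111), rose with oleate. The 0 with stearate stand against 5.35% of all genes, and the 2 of 15 with oleate (13.3%) against 6.9%. Both calls were lost in the CAY10566 samples alone. For stearate against oleate 2 of the 15 were called lower and 0 higher (13.3%, against 6.37% of all genes). One was ZFP36L1, named after its values were seen, at 132 ± 9.63 TPM with stearate and 177 ± 11.8 TPM with oleate (SD, n = 6 each). Its call held under all 27 alternatives, while the other, ZC3H12C, lost its call under 20 of 27.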

How the data were processed

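RNA of 18 OVCAR5 samples, 3 in each of 6 conditions, was sequenced by the authors as paired-end reads of 100 bases from a stranded mRNA kit. Per the submitters' processing notes and the methods, reads were trimmed with Trim Galore, aligned with STAR 2.7.1a to GRCh38 (Ensembl release 99) and quantified with RSEM. The table deposited by the authors holds TPM per gene. TPM sums to the same total in every sample, so the depth is unknown and no counting interval can be given. The 1 line that names no gene was left out. Conditions and replicate numbers come from the labels.

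Genes were matched by Ensembl identifier, and positions, overlaps and transcripts come from GENCODE release 44, a later annotation of the same build. Promoter sequences are RefSeq's on GRCh38.p14, and 8 of 10 genes matched.

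Differences were fitted with limma 3.58.1 under R 4.3.3 (lmFit, eBayes with trend) on log2(TPM + 1), over the 13789 genes whose TPM averaged 1 or more, with Benjamini-Hochberg adjustment over all of them, called under 0.05 and past a log2 change of 0.32. Fatty acid comparisons used 3 groups of 6 samples, CAY10566 used 9 against 9 samples with fatty acid as a covariate, and its effects within fatty acids and its interactions used a model of 6 conditions. The fits were tested on simulated data. Plots were made in Python 3.11.15 (matplotlib 3.10.9).

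The genes named are the 10 of the set, their receptors, CXCL3, and in each list up to 4 called genes with the largest change for stearate and for oleate against control. The members and lists were chosen with earlier results of these data known. Alternatives were another pseudocount, other filters, no trend, rescaling, a replicate block, CAY10566 as a covariate, DMSO or CAY10566 samples alone, and leaving out each sample.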

Additional observations from a re-analysis of the deposited data

Results flagged for a closer look

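In 30 groups, the 10 genes in each of the 3 fatty acid groups of 6 samples, the highest and lowest sample were compared with the rest, and the gap to the nearest sample was set against the range of the group. Chance alone marks about 1 group in 20. A pair of groups stood out, both through the same control sample, CAY10566 replicate 3: LIF was 270.55 TPM there, with the next sample at 184.37 TPM (a gap of 0.817 of the range, past Dixon's critical value), and TNFAIP3 was 36.87 TPM, with the next at 28.45 TPM (0.829 of the range). Without this sample the control means were 175 ± 7.69 TPM for LIF and 27.7 ± 0.726 TPM for TNFAIP3 (SD, n = 5). Its median-of-ratios size factor was 1.02, where those of the other control samples ran from 0.942 to 0.968. The part of this sample in the calls lost in the CAY10566 samples alone was not tested.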

How the results depend on the processing

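The direction of each called value named held under all alternatives run. Over all genes, stearate against control called 738 genes, 1114 in the DMSO samples only and 171 in the CAY10566 samples only, and 631 to 1065 with each sample left out in turn. Oleate against control called 951, 460 after rescaling, 2001 in DMSO and 3 in CAY10566 samples only, and 678 to 1557 with a sample left out, the highest without CAY10566 replicate 3. Stearate against oleate called 879, 333 in CAY10566 samples only, and 747 to 939 with a sample left out. Of the 9 tested genes of the set, oleate against control called 1, 2 in DMSO and 0 in CAY10566 samples only, and 1 to 2 with a sample left out (LIF joined without CAY10566 replicate 3); stearate against oleate called 2, and 1 in CAY10566 samples only, where TNFAIP3 was at -0.47 (limma adjusted p = 0.0883). Of the 136 list genes, stearate against control called 18, 28 in DMSO and 10 in CAY10566 samples only (16 to 23 with a sample left out), oleate against control 10, 30 and 0 (8 to 17, the highest without CAY10566 replicate 3, and 16 without oleate+CAY10566 replicate 3), and stearate against oleate 15, with 9 in CAY10566 samples only (12 to 15). The cause of these shifts was not tested. CAY10566 called 0 genes of the set under all alternatives. With 0.1 in place of 1, IL24 moved from -1.87 to -2.24 for stearate against oleate.

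The replicate numbers did not pair the samples: same-numbered samples had correlations of their deviations from -0.18 to 0.103 (median 0.012), and 5 of 18 samples correlated best with their own number. With a replicate block the calls were 720, 924 and 867 of all genes and 18, 10 and 14 list genes in the 3 fatty acid comparisons, and the members called stayed 1 with oleate and 2 for stearate against oleate.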
